A study of Mus musculus with 2 samples.

Results

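The 38 immediate early and stress response genes described here were chosen by name, as the rows of the deposited gene tables that carry their symbols, out of 56694 genes. They fall into 5 groups by what their products are known to do. The 9 AP-1 and related leucine zipper factors are Fos, Fosb, Fosl1, Fosl2, Jun, Junb, Jund, Atf3 and Maff, and the 9 other transcription factors are Egr1, Egr2, Egr3, Nr4a1, Nr4a2, Nr4a3, Klf2, Klf6 and Myc. The 11 feedback and attenuation genes are Dusp1, Dusp2, Dusp6, Zfp36, Socs3, Ppp1r15a, Btg2, Gadd45b, Ier2, Ier3 and Ier5. The 4 chaperones are Hspa1a, Hspa1b, Dnajb1 and Hsph1, and the 5 secreted and surface proteins are Ccn1, Ccn2, Thbs1, Icam1 and Serpinb2. All 38 had UMIs in both libraries.

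The study asked which epidermal cell types and genes depend on Gli2, a transcription factor that carries the Hedgehog signal. Cells came from epidermal whole mounts of the back skin of mice at the age of 2 days, in 1 library from control mice and 1 from Gli2_EKO mice. In Gli2_EKO mice, K14Cre removes floxed Gli2 in keratinocytes from embryonic stages onward, so that the dermal cells of the same library keep the gene. The labels give the genotype of the control as WT, and by the methods controls were littermates with floxed alleles and no Cre, while the number of mice in each library is not stated. In both libraries the tissue was digested at warm temperature, first with collagenase and DNase and then with trypsin and EDTA, before RNA was captured by its polyA end. With 1 library per genotype, genotype and library cannot be told apart, no test was made, and every interval below is a 95% interval for counting error only.

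As background, immediate early genes are transcribed within minutes of a stimulus without new protein synthesis, because the factors that switch them on are already present in the cell. Serum response factor and its partners act through CArG boxes, CREB acts through cAMP response elements, and growth factor, calcium and stress kinases activate both. The Fos and Jun proteins pair to form AP-1, which in epidermis is known for roles in differentiation and wound repair. Feedback genes such as the dual specificity phosphatases end the kinase signal, and Zfp36 promotes the decay of short-lived messengers. The inducible chaperones are driven by heat shock factor, which binds arrays of alternating GAA and TTC units. Many of these genes are also known to respond when tissue is dissociated with warm enzymes, and the part of dissociation in the levels given here was not tested.

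The upstream sequences of 4 members are shown because they belong to the chaperones and the feedback genes, whose differences between libraries or cell states are described in the results that follow, and because each holds 1 of the motifs named above. They were read from GRCm39, 5' to 3' on the gene's strand, and capitals mark the motif. Hspa1a, at chr17:35191133-35191382 on the minus strand, and Hspa1b, at chr17:35178215-35178464 on the minus strand, encode nearly the same inducible heat shock protein, and their 250 bases before the start hold GAANNTTC, 2 alternating heat shock units, ending 96 bases before it. Ier2, chr8:85389484-85389583 on the minus strand, and Btg2, chr1:134007006-134007105 on the minus strand, hold the cAMP response element TGACGTCA, ending 35 and 193 bases before the start. None of these windows overlaps an annotated exon.
Hspa1a: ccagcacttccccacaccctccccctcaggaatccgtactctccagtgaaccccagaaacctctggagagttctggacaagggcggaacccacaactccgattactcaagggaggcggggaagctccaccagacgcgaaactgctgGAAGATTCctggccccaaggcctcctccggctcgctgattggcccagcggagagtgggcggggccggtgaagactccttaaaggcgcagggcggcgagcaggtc
Hspa1b: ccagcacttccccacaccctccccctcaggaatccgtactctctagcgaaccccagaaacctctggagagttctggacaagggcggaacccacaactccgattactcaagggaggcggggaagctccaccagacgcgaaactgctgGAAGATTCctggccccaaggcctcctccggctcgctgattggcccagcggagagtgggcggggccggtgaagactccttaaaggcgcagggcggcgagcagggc
Ier2: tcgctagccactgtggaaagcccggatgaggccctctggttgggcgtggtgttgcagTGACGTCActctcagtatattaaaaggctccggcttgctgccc
Btg2: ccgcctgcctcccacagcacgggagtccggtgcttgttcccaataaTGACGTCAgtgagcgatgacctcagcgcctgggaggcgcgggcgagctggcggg
The pair Hspa1a and Hspa1b lie 9952 bases apart and differ at 3 of these 250 bases, between 2 and 207 bases before the start. Of their transcripts, 63.8% of the 31-base words of Hspa1a and 67.5% of those of Hspa1b were shared with the other, but 0 of those in the last 500 bases, where polyA reads fall.

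Of 21770 protein-coding genes with 250 bases before their start searched on both strands, 12.3% held GAANNTTC or TTCNNGAA, the 2 ways to set a pair of heat shock units, against 7 of the 38 members, namely Fosl1, Jun, Hspa1a, Hspa1b, Hsph1, Ccn1 and Serpinb2. Among the chaperones 3 of 4 held it, and Dnajb1, the cochaperone that delivers clients to Hsp70, did not. An array of 3 alternating heat shock units, which also counts as a match to the shorter form, was in 0.349% of windows and in 0 of the 38 members. TGACGTCA was in 1.69% of windows and in 6 members, Jund, Maff, Dusp1, Ppp1r15a, Btg2 and Ier2. The AP-1 site TGANTCA was in 6.17% of windows and in 2 members, Thbs1 and Serpinb2. TATAAA was in 11.9% of windows and in 8 members. A match describes these letters in this window and is not a measured binding site.

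The control library held 6326 barcodes with 71021773 UMIs and the Gli2_EKO library 4296 barcodes with 48866478 UMIs, and they shared 0 barcodes. After filters and doublet removal 4456 and 3093 cells were kept, with a median of 11806 and 11909 UMIs and 2.50% and 2.47% mitochondrial UMIs. Of these, 3324 and 2302 were keratinocytes. Cell classes were named from clusters by markers that hold none of the 38 members, and 15 classes had at least 25 cells in each library. Krt5 was found in 100% of IFE basal-like cells, where IFE is the interfollicular epidermis, and Krt17 was found in 99.7% of cells like those of the outer root sheath (ORS). The hair shaft-like class rests on 3 of its markers and scored nearly as high for the Foxq1 lineage. The companion-like class also rests on 3 of its 5 markers, with the most frequent, Krt6a, in 48.6% of cells. A further keratinocyte cluster, led by Tagln and Acta2, stayed unnamed. Clustering left the 38 genes out of its variable genes, yet Atf3 and Ccn1 are among the leading genes of a basal cluster and Ier3 of an ORS-like cluster. The Gli2 count was 83.6 CPM in control and 85.1 CPM in Gli2_EKO keratinocytes, where CPM scales the counts to a library or class total of 1e6 UMIs. The deleted exons are not stated and polyA reads need not cover them, so this checks nothing. The Hedgehog target Gli1, itself a marker of the ORS-like class, was at 22.1 and 12.3 CPM over all keratinocytes. Class shares enter this value, so it does not check the deletion either.

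Summed over all 38 members, the level among the 15 classes was highest in the interfollicular epidermis. In IFE basal-like cells it was 10084 CPM (10016 to 10152) in control and 10113 CPM (10053 to 10174) in Gli2_EKO. IFE suprabasal-like cells were at 9970 CPM (9883 to 10058) and 9943 CPM (9867 to 10020). These are the cells of the epidermis between the follicles, and about 1% of all their UMIs came from these genes in either library. In the follicle, ORS-like cells stood at 7549 CPM (7491 to 7608) and 7320 CPM (7241 to 7399), and cells with ORS and stem cell markers (ORS/SC-like) at 7047 CPM (6943 to 7153) and 4973 CPM (4857 to 5090). Companion-like cells, named after the layer inside the ORS, were at 5995 and 5663 CPM.

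The other follicle classes were lower. Matrix/progenitor-like cells, which build the hair, were at 3419 CPM (3377 to 3461) in control and 3262 CPM (3198 to 3328) in Gli2_EKO. Upper follicle-like cells were at 3516 and 2757 CPM, and cells like the sebaceous gland (SG) at 2705 and 2812 CPM. Inner root sheath (IRS)-like cells were at 2657 and 2653 CPM, hair shaft-like cells at 2681 and 2235 CPM, and the unnamed cluster at 3141 and 4106 CPM. From the lowest of these classes to the basal class the summed level differed by over 3-fold in each library, more than it differed between the libraries in any class. The order of basal and suprabasal cells, and of IRS-like, hair shaft-like and SG-like cells in control, lies within or near counting error and is not to be read.

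**Figure D1:**
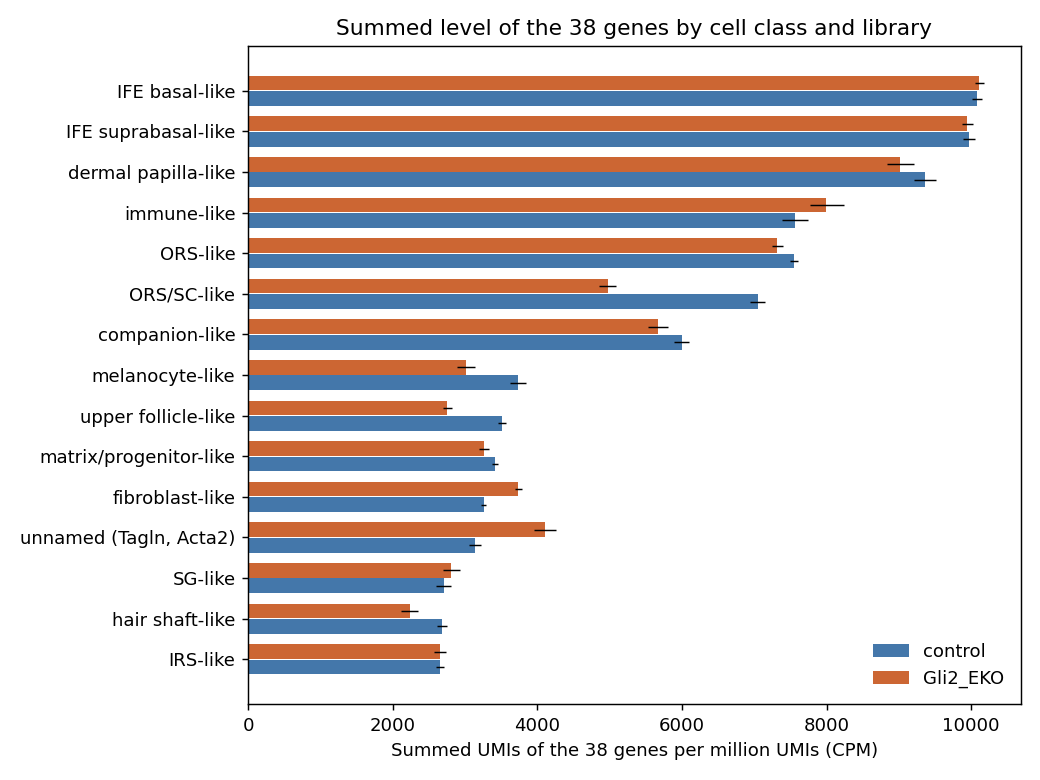
Summed level of the 38 members in CPM for the 15 cell classes, with 1 bar per library and error bars for the 95% counting interval. Basal-like and suprabasal-like bars of both libraries stand highest, at 9943 to 10113 CPM, and those of matrix-like, IRS-like, hair shaft-like and SG-like cells lie between 2235 and 3419 CPM.

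Within a class the genes were unevenly spread over cells. In IFE basal-like cells the median cell gave 0.520% of its UMIs to the members in control and 0.499% in Gli2_EKO, with the 10th to 90th percentile of cells from 0.102% to 2.64% and from 0.0983% to 2.87%. The 10% of basal cells with the most member UMIs held 38.2% and 41.1% of the member UMIs of the class. The counting intervals of the sums therefore leave out most of the variation between cells. Suprabasal-like cells had medians of 0.698% and 0.674%, and matrix/progenitor-like cells 0.129% and 0.164%. Cells with over 1% of their UMIs from the members made up 37.0% and 34.6% of basal-like cells and 39.1% and 38.8% of suprabasal-like cells. Over all keratinocytes they were 18.0% (16.7 to 19.3) in control and 22.3% (20.6 to 24.1) in Gli2_EKO.

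**Figure D2:**
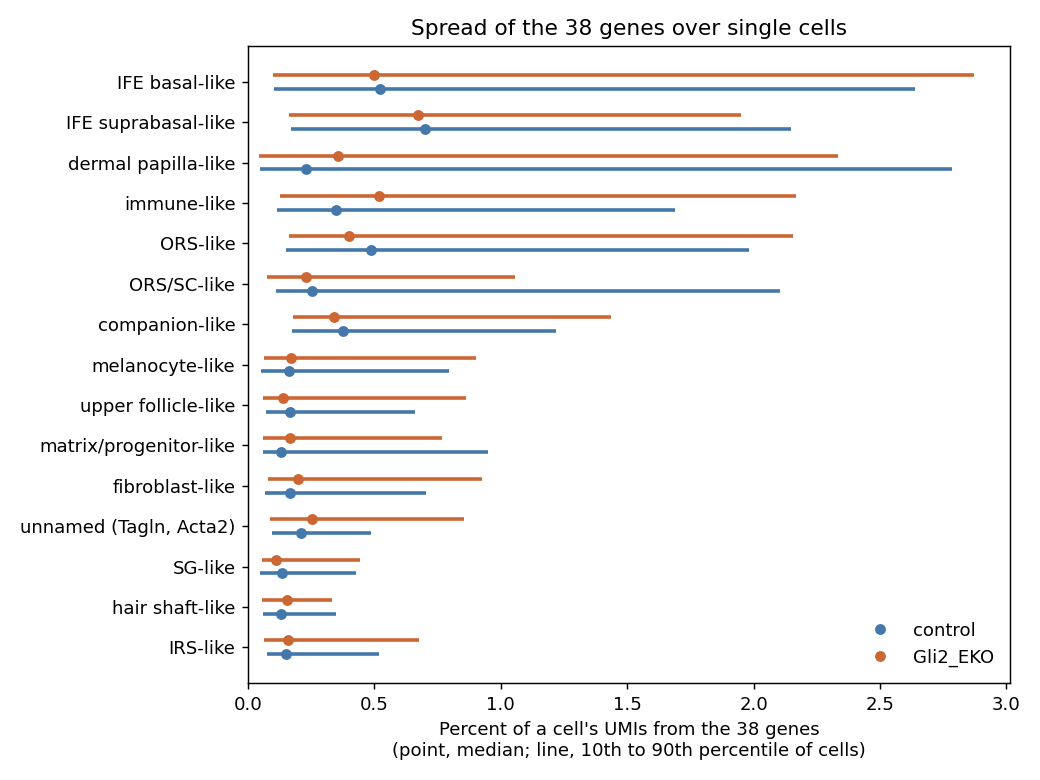
Percent of a cell's UMIs that came from the 38 members, by class and library, with a point at the median cell and a line from the 10th to the 90th percentile of cells. In basal-like cells the line spans from about 0.1% to above 2.5% in both libraries, and the medians of the libraries lie close to each other.

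To compare cells of unequal depth, each was thinned to 2000 UMIs, and the number of members with a UMI was counted. A mean of 7.59 members was found per basal-like cell in control and 7.29 in Gli2_EKO, and 59.8% (55.3 to 64.2) and 58.1% (54.2 to 61.9) of these cells had at least 5. ORS-like cells reached 64.3% and 60.7%, and suprabasal-like cells 69.8% and 69.1%. Matrix/progenitor-like cells had 21.7% and 24.2%, and hair shaft-like cells 17.4% and 20.5%. Cells with none of the members were few, at 1.88% and 3.29% of basal-like and 4.82% and 4.33% of all keratinocytes. The share with none also separated the classes, at 1.14% and 0.562% of ORS-like, 11.9% and 9.14% of matrix/progenitor-like and 18.2% and 23.1% of SG-like cells, the last over 44 and 26 cells.

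In the control library, 24 of 38 members were at least 1.5-fold higher in IFE basal-like cells than in the other keratinocytes, against 10.6% of all genes with at least 20 UMIs. In the Gli2_EKO library 17 of 38 were, against 10.5% of genes. In control the largest differences were those of secreted proteins and of AP-1 factors. Ccn1, a matrix protein that binds integrins, was at 598 CPM in basal-like and at 2.46 (log2) less in other control keratinocytes, and the difference in Gli2_EKO was 2.01. For Thbs1, thrombospondin, the log2 differences were 2.36 and 1.74, and for Atf3, a stress-induced leucine zipper factor, 2.15 and 1.22. The phosphatase Dusp1 was higher by 1.77 and 1.07. Against these, Dusp6, the phosphatase of ERK, was lower in basal-like cells by log2 values of -2.35 and -2.13, as was Egr3. Dusp2 was also lower in control.

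ORS-like cells held a different selection of the members. Egr1, a zinc finger factor induced by growth factors, was at 1152 CPM in control and 1040 CPM in Gli2_EKO ORS-like cells, higher than in the other keratinocytes by log2 1.65 and 1.73. Dusp6 was higher by 2.02 and 2.68, Ier3, an ERK target that limits cell death, by 1.98 and 2.42, and Nr4a1, an orphan nuclear receptor, by 1.29 and 1.10. Serpinb2, an inhibitor of plasminogen activators, was lower there by log2 values of -4.13 and -5.84 and had its highest level in suprabasal-like cells, 447 and 603 CPM. In matrix/progenitor-like cells 25 of 38 members were at least 1.5-fold lower than in other control keratinocytes, where 26.7% of all genes were, and 31 of 38 in Gli2_EKO, where 24.3% were. Of the 38, 27 had their highest keratinocyte class in common between the libraries, among them Fos, Fosb and Ccn2 in ORS/SC-like, Egr2 in companion-like, Egr3 in SG-like and Dusp6 in the unnamed cells.

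Within the basal-like and the ORS-like class, 1 cluster was made of dividing cells and the other held fewer of them. Mki67 had a UMI in 99.6% of dividing basal-like cells in each library and in 40.7% and 27.6% of the others. In the ORS-like class the shares were 100% and 99.4% against 56.5% and 47.1%, so that many cells of the other cluster also had a UMI of this gene. The dividing basal-like cells had a summed member level of 5884 CPM in control against 15295 CPM in the others, a log2 ratio of -1.38 (-1.40 to -1.36). In Gli2_EKO the levels were 6066 and 14057 CPM, with a log2 ratio of -1.21 (-1.23 to -1.19). In the ORS-like class the ratios were -0.999 (-1.02 to -0.976) and -1.06 (-1.09 to -1.03). The dividing clusters were thus lower in both of these classes and both libraries. In the upper follicle-like class a small cluster of 38 and 42 cells had Mki67 at 482 and 404 CPM, against 137 and 164 CPM. Its member level was higher, at 7252 and 5755 CPM against 3327 and 2489 CPM. Mki67 had a UMI in 55.3% and 35.7% of its cells against 46.7% and 56.4%, so it is not called a dividing cluster.

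By gene, 30 of 37 members with enough UMIs were at least 1.5-fold lower in dividing basal-like cells in control, against 11.4% of genes, and 26 of 37 in Gli2_EKO, against 12.4%. In the ORS-like class 29 of 38 were lower in control, against 11.0%, and 27 of 34 in Gli2_EKO, against 10.6%. The secreted and surface group had the lowest log2 ratio in basal-like cells, -1.85 and -1.76. Fosl1, the Fos relative of migrating keratinocytes, was at -2.41 and -2.54 there, and Nr4a3, an orphan nuclear receptor, at -2.51 and -2.23. Egr2 went the other way in basal-like cells, higher in the dividing cluster by log2 2.59 and 2.03, and Egr3 was higher by 0.50 and 0.66. The median member stood at -1.37 and -1.11 in basal-like cells, beside a median over all genes of 0.14 and 0.04. Depth moved with division, with medians of 19469 and 19035 UMIs in dividing and 14497 and 12966 UMIs in other basal-like cells, and its part was not tested. Atf3 and Ccn1, members among the leading genes of a basal cluster, stood at -2.29 and -1.64 in control and -1.40 and -1.59 in Gli2_EKO. Ier3, which leads an ORS-like cluster, was at -1.45 and -1.42 in that class. The clusters thus differ in more than division, and the part of division in these counts was not tested.

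**Figure D3:**
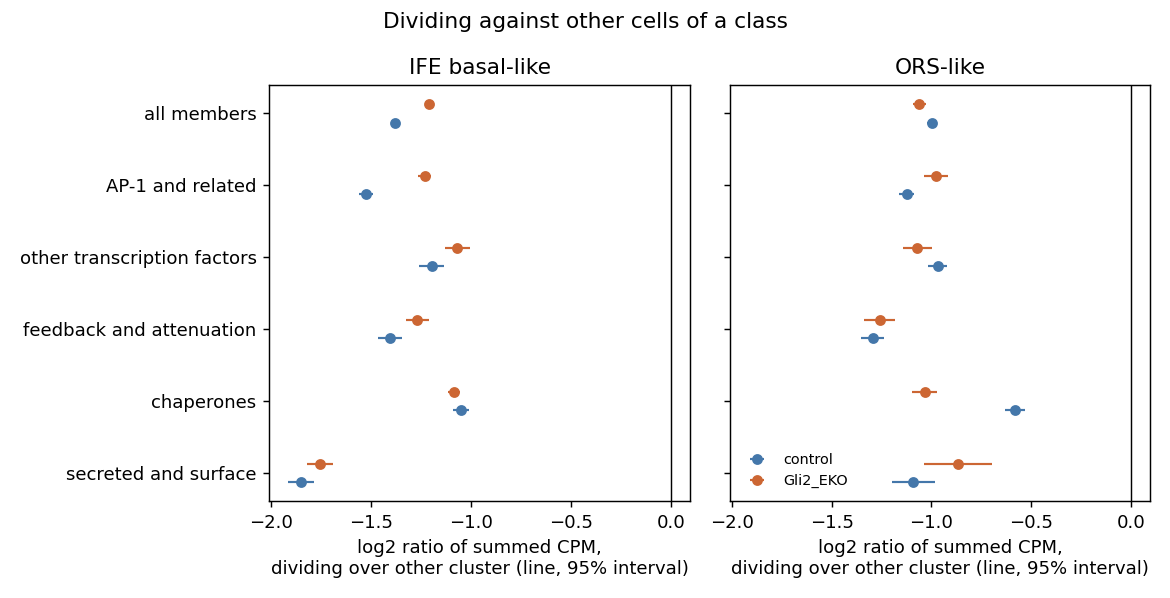
Log2 ratio of each role group of the members in the dividing over the other cluster, for IFE basal-like cells and ORS-like cells, with points for the 2 libraries and lines for the 95% counting interval. All points lie below 0, between -0.58 and -1.85.

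Among dermal cells, which keep Gli2 in both libraries, dermal papilla-like cells, the signalling centre under the follicle, had a summed level of 9358 CPM in control and 9021 CPM in Gli2_EKO. Fibroblast-like cells were at 3257 and 3739 CPM. The log2 ratio of papilla-like over fibroblast-like cells was 1.52 (1.49 to 1.55) in control and 1.27 (1.23 to 1.31) in Gli2_EKO. The chaperones held the largest part of it, at 2.44 and 1.89, and the AP-1 group was at 1.27 and 0.69. The summed levels of papilla-like cells came in large part from few cells, as in other classes. The median papilla-like cell gave 0.229% and 0.354% of its UMIs to the members. The 10% of papilla-like cells with the most member UMIs held 50.7% and 44.9% of the member UMIs. The same shares were 45.8% and 43.3% in fibroblast-like cells and 55.4% and 51.0% in matrix/progenitor-like cells. Immune-like cells were at 7563 and 7998 CPM, and melanocyte-like cells at 3731 and 3013 CPM.

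Between the libraries, the members summed over all keratinocytes were at 6330 CPM in control and 7414 CPM in Gli2_EKO, a log2 ratio of 0.23 (0.22 to 0.24). The classes with high levels were a larger part of the Gli2_EKO keratinocytes. IFE basal-like cells made up 14.5% of control and 29.0% of Gli2_EKO keratinocytes and suprabasal-like cells 6.47% and 13.3%, while matrix/progenitor-like cells, which are low, made up 15.3% and 8.21%. With the Gli2_EKO classes weighted to the control shares the log2 ratio was -0.09. Within the classes the summed level was lower in Gli2_EKO in 10 of 15, between log2 -0.50 in ORS/SC-like cells and 0.39 in the unnamed cluster, and in no class did it reach 1.5-fold. Its direction depends on the scaling, with 8 of 15 classes lower under TMM factors and 7 of 15 under DESeq2 size factors. Of single members over all keratinocytes, 6 of 38 were at least 1.5-fold higher in Gli2_EKO (Gadd45b, Hspa1a, Hspa1b, Dnajb1, Icam1 and Serpinb2), against 6.08% of genes, and 1, Egr3, was lower, against 12.2%. None of these 7 stayed past 1.5-fold with the classes weighted to the control shares, where Gadd45b was at 0.41, Hspa1a at 0.31, Hspa1b at 0.41, Dnajb1 at 0.21, Icam1 at 0.44, Serpinb2 at -0.05 and Egr3 at -0.39. Fosb, at -0.70, and Nr4a3, at -0.61, then lay past it.

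The near equality of the sums held opposite directions of the role groups. The AP-1 group was lower in Gli2_EKO in 14 of 15 classes, with a median log2 ratio of -0.28 and a range from -0.76 in melanocyte-like cells to 0.19 in the unnamed cluster, and in 13 of 15 under TMM or DESeq2 scaling. Its single genes did not all share this direction. Atf3 was higher in Gli2_EKO in 8 of 15 classes, Fosl1 in 4 of 8, Jund in 5 of 15 and Jun in 4 of 15, while Fos was lower in 15 of 15. The other transcription factors were lower in 14 of 15 classes under each scaling, with a median of -0.35. The chaperones were higher in 11 of 15 classes under each scaling, with a median of 0.39 and a range from -0.27 in hair shaft-like to 0.96 in fibroblast-like cells. The feedback genes were lower in 11 of 15 classes, and in 10 under the other scalings, with a median of -0.15, and the secreted and surface group was lower in 10, and in 9 under the other scalings. Without the 10% of cells with the highest member share in each class and library, the AP-1 group was lower in 11 of 15 classes and the chaperones were higher in 12 of 15. The feedback genes were then lower in 8 of 15, with a median close to 0, the other transcription factors in 12 and the secreted and surface group in 9. Over all keratinocytes, where class shares enter, the AP-1 group was at -0.00, but at 0.12 and 0.11 under TMM and DESeq2 scaling and at -0.34 when weighted to the control shares, and the chaperones were at 0.64 and 0.32 when weighted.

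**Figure D4:**
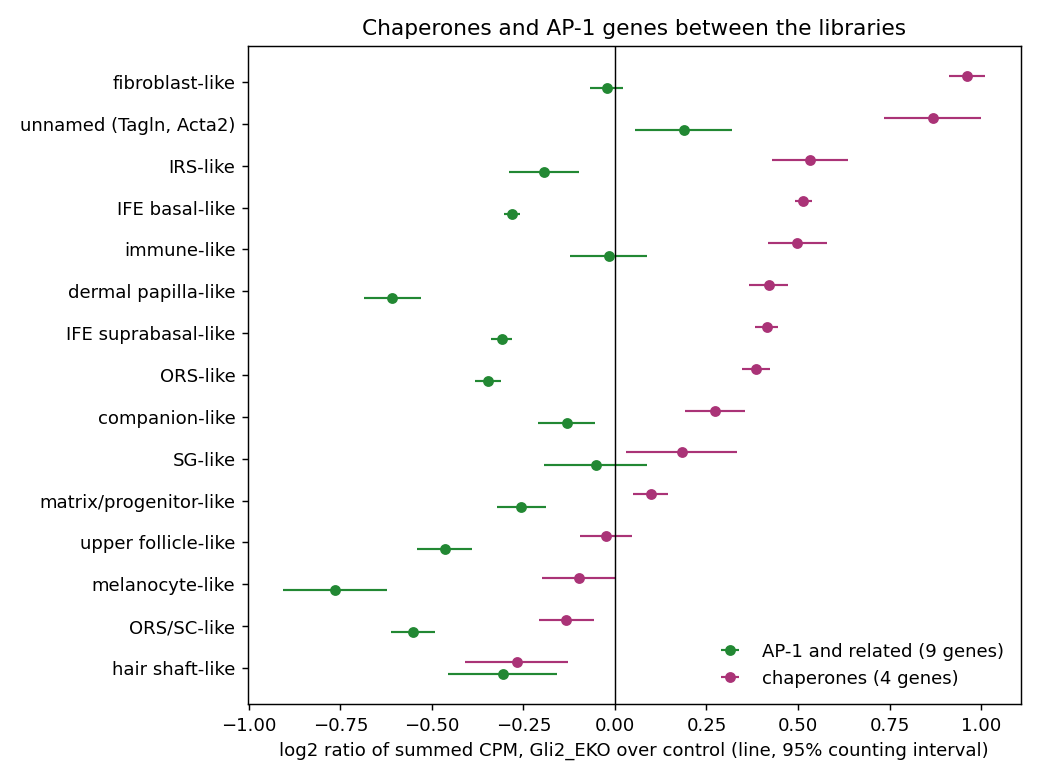
Log2 ratio of the summed CPM, Gli2_EKO over control, of the AP-1 group and of the chaperones in 15 classes, with lines for the 95% counting interval. Chaperones lie above 0 in 11 classes and the AP-1 group below 0 in 14.

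In IFE basal-like cells the AP-1 group summed to 3878 CPM in control and 3192 CPM in Gli2_EKO, a log2 ratio of -0.28 (-0.30 to -0.26). Fos, the AP-1 subunit with the shortest-lived messenger, was at 669 and 503 CPM, -0.41 (-0.47 to -0.36). It was lower in Gli2_EKO in 15 of 15 classes under each scaling, with the interval below 0 in 13 of them, a median of -0.54 and a range from -1.55 in IRS-like cells to -0.19 in the unnamed cluster. Fosb, its relative, was at 58.5 and 24.4 CPM in basal-like cells, -1.26 (-1.48 to -1.04). Atf3 was at 849 and 543 CPM, -0.65 (-0.70 to -0.60).

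The Jun genes, the partners of Fos, differed less than Fos in basal-like cells. Jun was at 1357 and 1223 CPM in basal-like cells, -0.15 (-0.19 to -0.11), and Junb was at 284 and 285 CPM, 0.00 (-0.08 to 0.08). Jund was at -0.05 (-0.11 to 0.01), Fosl1 at -0.33 (-0.46 to -0.20), Fosl2 at -0.19 (-0.38 to -0.00) and Maff, a small partner without an activation domain, at -0.27 (-0.68 to 0.15). In suprabasal-like cells Jun, at -0.47, differed more than Fos, at -0.34, and in matrix/progenitor-like cells Jun was at -0.75 and Fos at -0.45. Fos had UMIs in 35.2% of thinned basal-like cells in control and 30.7% in Gli2_EKO, and in 46.0% and 33.4% of ORS-like cells. Fewer cells and a lower level thus went together for Fos in both classes. No class could be named that lacks Fos, but Serpinb2, which has its highest level in suprabasal-like cells, had UMIs in 0.462% and 0.615% of thinned fibroblast-like cells, which bounds what free RNA gives for that gene.

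The other transcription factors had negative log2 ratios in basal-like cells for 9 of 9 genes. Egr1 was at 487 CPM in control and 386 CPM in Gli2_EKO, -0.34 (-0.40 to -0.27). Its relatives Egr2 and Egr3 were at 48.4 and 28.1 CPM, -0.78, and at 41.8 and 23.1 CPM, -0.86, with intervals below 0. The nuclear receptor Nr4a1 was at -0.23 (-0.34 to -0.11) and Nr4a3 at 16.6 and 8.17 CPM, -1.03 (-1.43 to -0.63). Nr4a2 was at 6.77 and 3.10 CPM, and rests on 90 UMIs. The Krüppel-like factors Klf6 and Klf2 were at -0.12 (-0.19 to -0.04) and -0.23 (-0.91 to 0.46), and Myc, which drives growth, at -0.09 (-0.28 to 0.10). Over classes, Egr1 was lower in Gli2_EKO in 12 of 15, Klf6 in 13 of 15 and Egr3 in 13 of 14 under each scaling.

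The feedback genes went both ways. Btg2, an antiproliferative gene, was at 371 and 258 CPM in basal-like cells, -0.53 (-0.60 to -0.45), and Dusp1 at 146 and 108 CPM, -0.44 (-0.55 to -0.32). Socs3, which limits cytokine signalling, was at -0.44 (-0.66 to -0.23) and Ier2, a nuclear protein of unsettled function, at -0.22 (-0.32 to -0.13). Gadd45b, a stress sensor that acts on the p38 kinase pathway, was at 123 and 230 CPM, 0.90 (0.79 to 1.01), and Ier3 at 55.5 and 76.7 CPM, 0.47 (0.30 to 0.63). Zfp36, at 0.03 (-0.08 to 0.13), and Ppp1r15a, which restores translation after stress, at 0.01 (-0.15 to 0.17), lay close to 0, as did Ier5 and Dusp6 within their intervals. In ORS-like cells Gadd45b was at 61.8 and 103 CPM, 0.74 (0.55 to 0.92), and Ier3 at 183 and 298 CPM, 0.71 (0.60 to 0.81), while in suprabasal-like cells Gadd45b was at 135 and 136 CPM.

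The chaperones summed to 2700 CPM in control and 3858 CPM in Gli2_EKO basal-like cells, 0.52 (0.49 to 0.54). Hspa1a was at 1062 and 1585 CPM, 0.58 (0.54 to 0.61), and Hspa1b at 970 and 1484 CPM, 0.61 (0.58 to 0.65). The cochaperones differed less, with Dnajb1 at 431 and 507 CPM, 0.23 (0.17 to 0.29), and Hsph1, a nucleotide exchange factor of Hsp70, at 236 and 281 CPM, 0.25 (0.17 to 0.33). In fibroblast-like cells, which keep Gli2, Hspa1a was at 268 and 566 CPM, 1.08 (1.00 to 1.15), and Hspa1b at 297 and 613 CPM, 1.04 (0.97 to 1.12). Melanocyte-like cells, which are not keratinocytes either, did not share this, with the chaperones at -0.10 (-0.20 to 0.00) and Hspa1b at -0.16. The part of Gli2 in these differences was not tested. In papilla-like cells Hspa1a was at 1358 and 2202 CPM, 0.70 (0.61 to 0.78), while Dnajb1 was at 438 and 225 CPM, -0.96 (-1.18 to -0.74). Hspa1a had UMIs in 54.4% and 62.1% of thinned basal-like cells and in 17.6% and 30.3% of fibroblast-like cells. Over the 15 classes Hspa1a was higher in 11, and in 12 under the other scalings, and Hspa1b in 13. Dnajb1 was higher in only 6 of 15, and in 6 and 7 under TMM and DESeq2 scaling, and Hsph1 in 9, and in 10 under the other scalings, so that the 4 chaperones did not share the direction of their sum in every class.

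Among the secreted and surface proteins, Ccn1 was at 598 and 521 CPM in basal-like cells, -0.20 (-0.25 to -0.14), Thbs1 at 242 and 187 CPM, -0.37 (-0.46 to -0.28), and Ccn2, a relative of Ccn1, at -0.26 (-0.51 to -0.01). Icam1, an adhesion molecule for leukocytes, was at 78.2 and 126 CPM, 0.69 (0.55 to 0.83). Serpinb2 was at 257 and 163 CPM in basal-like cells, -0.65 (-0.74 to -0.56), and at 447 and 603 CPM in suprabasal-like cells, 0.43 (0.36 to 0.51). Its value of 0.80 over all keratinocytes, which is -0.05 after weighting to the control class shares, therefore joins opposite directions in neighbouring layers.

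Counted in basal-like cells, 4 of 38 members were at least 1.5-fold higher in Gli2_EKO (Gadd45b, Hspa1b, Icam1 and Dusp2, the last on 22 UMIs), against 4.66% of genes. Only 1 was higher with clustering at resolution 1.0, and 2 were with the members kept among the variable genes, with classes set from single cells, or without the top 10% of cells. There were 7 lower (Fosb, Atf3, Egr2, Egr3, Nr4a2, Nr4a3 and Serpinb2), against 8.93% of genes, and 11 with classes set from single cells. The median member was at -0.21, beside -0.07 over all genes. In ORS-like cells 3 were higher (Gadd45b, Ier3 and Dnajb1), against 4.55% of genes, and 6 lower (Fos, Fosb, Nr4a2, Dusp2, Ccn2 and Serpinb2), against 7.73%, with a median of -0.14 beside -0.05.

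**Figure D5:**
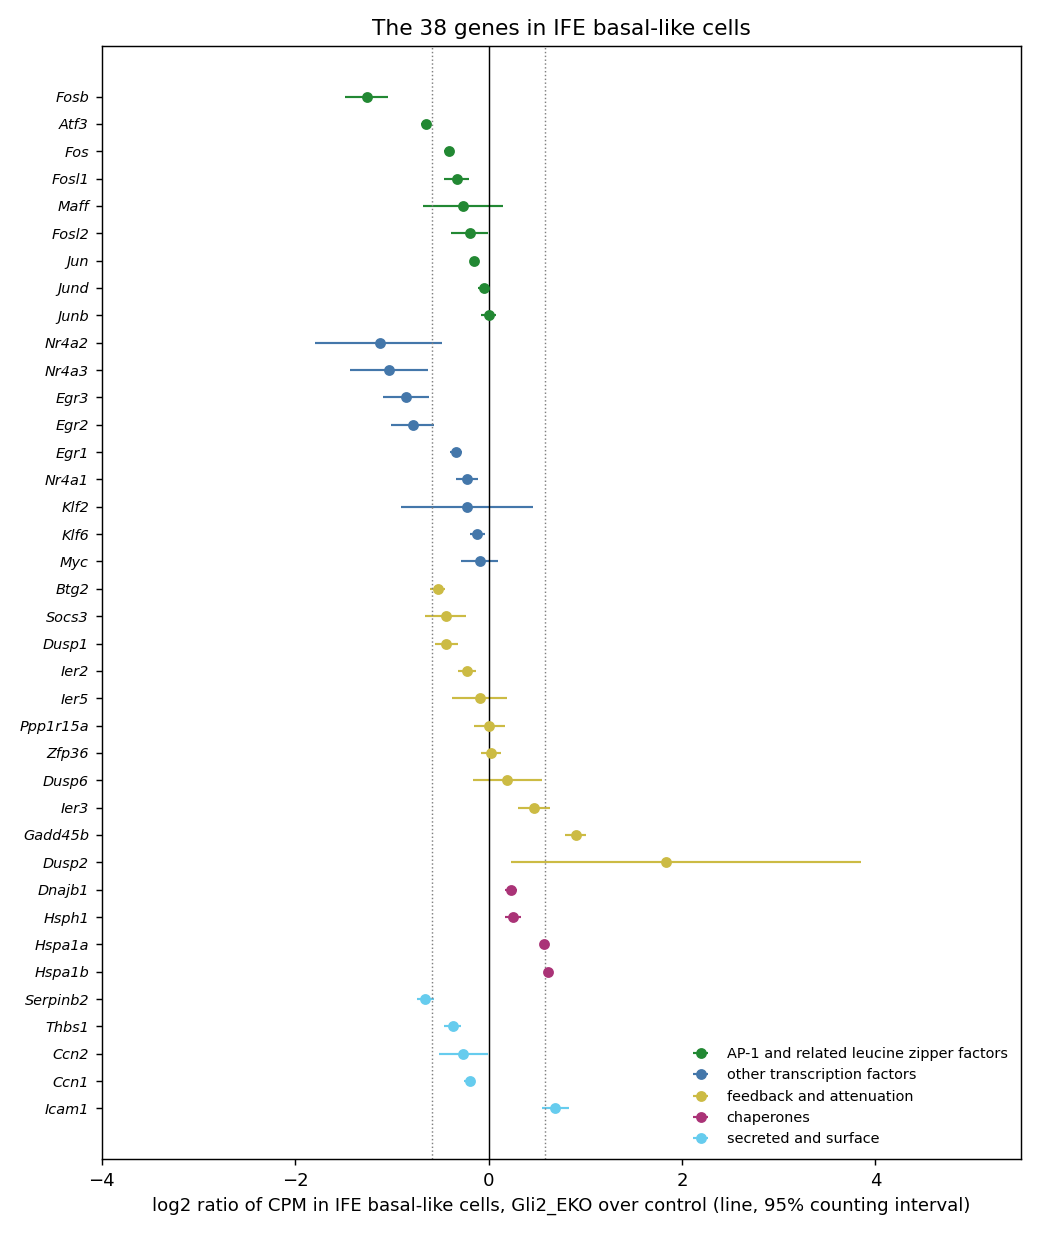
Log2 ratio, Gli2_EKO over control, of each of the 38 members in IFE basal-like cells, by role group, with lines for the 95% counting interval and dotted lines at 1.5-fold. The 4 chaperones lie above 0, the 9 other transcription factors below it, and Gadd45b at 0.90 and Fosb at -1.26 lie beyond the dotted lines.

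Members lower in Gli2_EKO were more frequent than lower genes among all genes in papilla-like and ORS/SC-like cells. In upper follicle-like and immune-like cells the median member was at -0.34 and -0.30, beside -0.03 and -0.02 over all genes. In ORS/SC-like cells 14 of 32 members with enough UMIs were at least 1.5-fold lower in Gli2_EKO, against 8.91% of genes, with a median of -0.54 beside -0.00 over all genes. Atf3 was at 256 and 40.3 CPM there, -2.67 (-3.08 to -2.27), Btg2 at 291 and 80.6 CPM, -1.85, Zfp36 at 89.5 and 26.2 CPM, -1.78, and Dnajb1 at 233 and 70.0 CPM, -1.73. The 54 related response genes had the same median, -0.54, and 20 of 43 were lower. In papilla-like cells 5 of 34 members were higher (Egr3, Nr4a3, Ier3, Ier5 and Hspa1a), against 7.92% of genes, and 15 were lower, against 8.88%, with a median of -0.53 beside 0.00. Fos was at 893 and 362 CPM, -1.31 (-1.47 to -1.14), and Klf2, a factor of quiescent endothelium and lymphocytes, at 169 and 71.3 CPM, -1.24 (-1.64 to -0.86). Without the top 10% of cells the AP-1 group of papilla-like cells was at -0.24 in place of -0.61, while that of ORS/SC-like cells was at -0.60 in place of -0.55, and all members there were at -0.57 in place of -0.50.

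The role groups varied together over single cells. Over 480 control and 668 Gli2_EKO basal-like cells thinned to 2000 UMIs, Spearman's rho between the AP-1 group and the chaperones was 0.63 and 0.66, and between the AP-1 group and the feedback genes 0.75 and 0.65. For Hspa1a with Hspa1b it was 0.74 and 0.81, and for Fos with Jun 0.48 in both. Within the other basal-like cluster AP-1 with chaperones was at 0.53 and 0.62, and within the dividing basal-like cluster at 0.54 and 0.55, so that the relation was also present within each cell state. In ORS-like cells it was 0.43 and 0.49. These cells share a library and a digestion, and the values are descriptions with no test. By rank over single cells, the member share was nearly unrelated to the mitochondrial share, with rho of -0.01 and -0.04 in basal-like cells. Its relation to a cell's UMIs was weak, with -0.06 and -0.15. With basal-like cells split by UMIs into 3 parts of near equal size, the chaperones were higher in Gli2_EKO in each, at 3266 and 4737 CPM in the lowest, 2776 and 3979 in the middle and 2410 and 3390 in the highest. From the lowest to the highest part the summed level fell from 11823 to 9149 CPM in control and from 11891 to 8969 CPM in Gli2_EKO. In ORS-like cells it fell from 9106 to 6433 and from 10023 to 5673 CPM. In control matrix/progenitor-like cells it rose from 2488 to 3597 CPM, while in Gli2_EKO it was at 3406, 2973 and 3395 CPM from the lowest to the highest part. Split by mitochondrial share, the summed level of control matrix/progenitor-like cells fell from 4065 to 2420 CPM. That of basal-like cells then fell from 10370 to 9247 CPM in control and from 11176 to 8875 CPM in Gli2_EKO. The parts of depth and of mitochondrial share were not tested.

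The 54 related response genes, heat shock, NF-kB and growth factor response genes outside the 38, had a median nearer to 0 than the members in basal-like and ORS-like cells, but not in ORS/SC-like cells. In basal-like cells 6 of 52 with enough UMIs were at least 1.5-fold higher in Gli2_EKO, against 4.66% of all genes. Another 5 of 52 were lower, against 8.93%, and the median was -0.01 beside -0.07 over all genes. The highest were Cxcl1, a neutrophil chemokine, at 1.77, Hspb1, a small heat shock protein, at 1.05 and Areg, an EGF receptor ligand, at 0.92. The lowest were Ptgs2, a prostaglandin synthase, at -1.02, Rhob at -0.83 and Cebpd at -0.75. In ORS-like cells the highest were Areg at 1.62, Arc at 1.10 and Klf9 at 0.95, and the lowest Cxcl1 at -0.91, Plaur at -0.59 and Rhob at -0.51. Of other chaperones in basal-like cells, the constitutive Hspa8 was at 0.09 and Hsp90ab1 at 0.21, the inducible Hsp90aa1 at 0.32 and Bag3, an inducible Hsp70 cochaperone, at 0.60.

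Free RNA from broken cells adds UMIs to every droplet. The keratinocyte gene Krt14 was at 98.1 and 100 CPM in fibroblast-like cells, beside 4395 and 7917 CPM in keratinocytes, and the fibroblast gene Col1a1 was at 43.5 and 28.0 CPM in keratinocytes, beside 9250 and 7891 CPM in fibroblast-like cells. Serpinb2 was at 2.07 and 2.85 CPM and Fosl1 at 1.09 and 2.14 CPM in fibroblast-like cells, against 101 and 176 CPM and 45.1 and 65.3 CPM in keratinocytes. Of Fos, Jun, Egr1 and Hspa1a, Egr1 was lowest in fibroblast-like cells, at 158 and 160 CPM. The part of free RNA in these levels was not tested.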

How the data were processed

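Single-cell RNA was measured by the 10x 3' polyA assay in 1 control and 1 Gli2_EKO library. The authors aligned the reads with Cell Ranger 9.0.1 to GRCm39 with GENCODE annotation and deposited filtered UMI counts for each gene and barcode, not normalized. A UMI marks 1 captured transcript end, so levels were not divided by length, and reads were not seen here.

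Cells with over 1000 and under 8000 genes and under 15% mitochondrial UMIs were kept, following the paper's methods. Doublets were called there with scDblFinder, which was not run here. Scrublet in scanpy 1.11.5 scored doublets, and since its automatic threshold marked 261 control and 5 Gli2_EKO cells, the top 8% of cells by score were removed from either library. Seurat 5.3.0 under R 4.3.3 clustered the cells on 2000 variable genes, without the 38 members and 54 related genes, and 20 principal components, after integration by a rewritten Harmony algorithm, at resolution 0.5. Clusters took the class whose markers scored highest, at a log2 score of at least 1 with at least 3 markers in 10% of cells. Sums and intervals were computed under Python 3.11.15 with scipy 1.17.1.

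For each class in each library, UMIs were added up and scaled to CPM. Intervals are exact Poisson for CPM, conditional binomial for log2 ratios and Clopper-Pearson for shares, at 95%. A gene counted as past 1.5-fold with at least 20 UMIs in both groups together, after 0.5 UMIs were added to each side. edgeR 4.0.16 and DESeq2 1.42.0 gave scaling factors only, because 1 library per genotype allows no test. The counting scripts were tested on simulated data. Upstream sequences came from GRCm39 at canonical starts of a later GENCODE release.

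The members, their groups and the related genes were chosen with earlier results of these data known. All 38 members could be named. From the related genes the 3 highest and 3 lowest log2 ratios with at least 100 UMIs are named, apart from 1 that is not reported here, and outside both lists the 10 genes whose levels follow the summed level most closely. Other genes named are markers or leading genes of clusters, Gli2, Gli1 and Mki67, and, as checks, Krt14 and Col1a1. From the related genes, the chaperone genes Hspa8, Hsp90ab1, Hsp90aa1 and Bag3 are also named, which were picked after their values were seen. Alternatives were doublet removal, resolution, integration, the variable genes, classes set from single cells, the mitochondrial limit, the totals, TMM and DESeq2 scaling, class shares, UMI minimums and thinning.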

Additional observations from a re-analysis of the deposited data

Results flagged for a closer look

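For 10 members, the log2 ratio of Gli2_EKO over control lay past 1.5-fold in opposite directions in a pair of classes, among classes where the member had at least 100 UMIs over both libraries. These differences were not tested, because each class has 1 library per genotype. The share of all genes that meet the same rule is not given. The 10 are therefore not to be read as a trait of this list. The pair shown is the most distant among the classes that reach this minimum, and classes with fewer UMIs lay farther apart for some members. More members had opposite signs beyond counting error without reaching 1.5-fold on both sides, Jun among them.

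Among transcription factors, Atf3 was at 0.92 in the unnamed cluster and at -2.67 in ORS/SC-like cells, a difference of 3.58, and Junb was at 0.65 and -0.81 in the same pair, a difference of 1.46. Among feedback genes, Ier3 differed by 1.93, from 1.01 in companion-like to -0.92 in IRS-like cells. Gadd45b differed by 1.498, from 0.90 in IFE basal-like to -0.60 in immune-like cells, and Dusp6 by 1.25, from 0.61 in the unnamed cluster to -0.64 in hair shaft-like cells. Among chaperones, Dnajb1 differed by 2.46, from 0.72 in ORS-like to -1.73 in ORS/SC-like cells, and Hsph1 by 1.54, from 0.67 in fibroblast-like to -0.86 in hair shaft-like cells. Among secreted and surface proteins, Ccn1 differed by 2.99, from 1.61 in SG-like to -1.38 in companion-like cells. Serpinb2 differed by 1.60, from 0.95 in upper follicle-like to -0.65 in IFE basal-like cells, and Thbs1 by 1.19, from 0.60 in the unnamed cluster to -0.59 in upper follicle-like cells.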

How the results depend on the processing

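With 1 library per genotype, no replicate could be left out, and no paired analysis was possible because the libraries carry no replicate numbers. The AP-1 group stayed below 0 and the chaperones above 0 in basal-like and ORS-like cells under every alternative run, and basal-like cells stayed above the other keratinocytes in both libraries. Log2 ratios of Gli2_EKO over control that moved beyond their counting interval follow, with a library total, class or cell choice changed one at a time. Of 41 results, 216 alternative values stayed within the interval or the 1.5-fold limit, 169 moved and 5 changed sign. The causes were not tested, and counting intervals are narrow beside the spread between cells.

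The TMM factors had a log2 ratio, Gli2_EKO over control, of -0.12 over all keratinocytes and -0.09 in basal-like cells. For the DESeq2 factors, relative to the totals, it was -0.11 and -0.09. Each was subtracted from the log2 ratios of the genes, which moved these up. The AP-1 group was then at 0.12 and 0.11 over all keratinocytes and at -0.19 and -0.19 in basal-like cells, chaperones at 0.76 and 0.75 and at 0.61 and 0.60, and all members at 0.35 and 0.34 and at 0.096 and 0.093. With class shares weighted to control, all members turned to -0.088 over all keratinocytes, Atf3 to -0.48 and Serpinb2 to -0.053, and the AP-1 group was at -0.34 and chaperones at 0.32.

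Clustering at resolution 1.0 gave -0.44 for the AP-1 group, 0.45 for chaperones and -0.11 for all members in basal-like cells, -0.066 for all members in ORS-like cells, 1.30 and 1.09 for basal-like over other keratinocytes in control and Gli2_EKO, and sums of 13254 and 12262 CPM. With the members kept among the variable genes the AP-1 group was at -0.41 in basal-like and -0.43 in ORS-like cells, chaperones at 0.37 and 0.31, all members at -0.12 and -0.13, basal-like over others at 1.35 and 1.10, and the sums at 13290 and 12222 CPM. With classes set from single cells they were at -0.41 and -0.26, 0.48 and 0.51, -0.087 and, with the sign turned in ORS-like cells, 0.021, with basal-like over others at 1.12 and 0.87 and sums of 11814 and 11123 CPM. Basal-like members past 1.5-fold were 1 higher in the first of these, 2 in the second, and 2 higher and 11 lower in the third. Without integration the AP-1 group was at -0.40 and all members at -0.066 in ORS-like cells, basal-like over others at 0.71 and the sum at 10032 CPM in Gli2_EKO.

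A mitochondrial limit of 10% gave -0.40 for the AP-1 group and -0.074 for all members in ORS-like cells, 0.49 and -0.015 for chaperones and all members in basal-like cells, 1.49 for papilla-like over fibroblast-like cells and 10213 CPM in control, and 2 members lower over all keratinocytes. Totals without mitochondrial and ribosomal protein genes gave 0.027, 0.67 and 0.26 for the AP-1 group, chaperones and all members over all keratinocytes, 0.019 and -0.022 for all members in basal-like and ORS-like cells, 0.90 and 0.73 for basal-like over others, 1.46 and 1.204 for papilla-like over fibroblast-like cells, and 12415 and 12580 CPM. Without doublet removal chaperones were at 0.66 over all keratinocytes and 0.43 in ORS-like cells, all members at 0.24, basal-like over others at 0.86 and 0.67, papilla-like over fibroblast-like at 1.32 and 0.91, and the sums at 9860 and 9902 CPM. Scrublet's threshold gave -0.078 for all members in ORS-like cells, 0.85 and 0.68, 1.39 and 0.97, and 9960 and 9985 CPM.

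Without Hspa1a all members were at 0.17 over all keratinocytes and at -0.081 in basal-like and -0.084 in ORS-like cells, basal-like over others at 0.68 in Gli2_EKO, papilla-like over fibroblast-like at 1.42 and 1.10, and the sums at 9022 and 8528 CPM. Chosen after seeing the data, leaving out Hspa1b as well gave 0.085, -0.19 and -0.14, then 0.90 and 0.65, 1.26 and 0.88, and 8052 and 7043 CPM. Also chosen after seeing the data, leaving out the top 10% of cells gave 0.025 and -0.46 for the AP-1 group over all keratinocytes and in ORS-like cells, 0.73, 0.40 and 0.24 for chaperones and 0.24, -0.070 and -0.14 for all members over all keratinocytes, basal-like and ORS-like cells, 0.96 and 0.67 for basal-like over others, 1.39 and 1.22 for papilla-like over fibroblast-like, and 7280 and 6934 CPM. Then 2 basal-like members were higher by 1.5-fold, and Dnajb1 turned to -0.032. Basal-like cells with at least 5 members were 84.7% and 81.9% at 5000 UMIs, and 98.5% and 98.7% with no thinning.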

Other observations

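Over the 30 profiles of 15 classes and 2 libraries, the genes outside both lists whose level followed the summed level of the members most closely, among 11301 with at least 500 UMIs, were Jak1, with Spearman's rho of 0.82, Sh3bgrl3 at 0.81, Dtx3l at 0.78, Pnrc1 at 0.77, Gna14 and Il13ra1 at 0.73, Slc2a1, Zfp467 and Wsb1 at 0.72 and Ggta1 at 0.71. Of the members themselves, Dusp1 was at 0.89, Jun at 0.85 and Fos at 0.83, and Egr3 was at -0.37. Of the related genes, Tiparp was at 0.80, Irf1 at 0.74 and Csrnp1 at 0.74. The 30 profiles share 2 libraries and their classes, and these values are descriptions.

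Over all keratinocytes, the related genes with the highest log2 ratio of Gli2_EKO over control were Areg at 1.43, Hspb1 at 0.85 and Arc at 0.71, and those with the lowest were Hmox1, which degrades heme, at -0.93, Plk3 at -0.67 and Dusp4 at -0.56. In papilla-like cells Errfi1, a feedback inhibitor of the EGF receptor, was at 1.25, Hmox1 at 0.62 and Cebpd at 0.51, while Nfkbiz was at -0.90 and Hspb1 at -0.56. Hmox1 and Hspb1 thus lay on opposite sides of 0 in keratinocytes and papilla-like cells, a difference that was not tested.

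Mural-like cells, with 26 cells in control and 20 in Gli2_EKO, were too few for the 15 classes. Their summed level was 10008 and 13571 CPM, and at least 5 members were found in 20 of 26 and 18 of 20 of them after thinning to 2000 UMIs.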
